A study of Mus musculus with 2 samples.

Results

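The 10 genes described here are the interleukin-6 (IL-6) family axis of colitis-associated colon tumors (CACs). They are the cytokines *Il6*, *Il11*, *Osm* and *Lif*, the receptor chains *Il6ra*, *Osmr* and *Lifr*, the shared chain *Il6st* (gp130), the transcription factor *Stat3* and its feedback inhibitor *Socs3*. The genes were chosen by name, with earlier results of these data known. All 10 were among the 32291 genes measured in 38883 cells of 11 deposited cell types. Droplet-based 3′ sequencing of mRNA in single cells gave 1 library for each genotype, which pooled 6–8 tumors of 3 female mice, and no label ties a cell to a mouse. All mice carried floxed *Mir34a* alleles, which for *Mir34a* F/F mice is the only modification named. *Mir34a* ΔMye mice, whose library GEO's label calls Mir34a_Mye_KO, carried *LysM-Cre* in addition, a recombinase driven by the lysozyme gene and active in the myeloid lineage, mainly in macrophages and neutrophils. Mice of both genotypes were 6–10 weeks old at the start and received azoxymethane (AOM, a colon carcinogen) at 10 mg/kg, given 5 days ahead of each of the earlier 2 cycles of dextran sulfate sodium (DSS, an agent that injures the colon epithelium). DSS was given in the drinking water for 5 days at 2.5% in cycles 1 and 2, each followed by 16 days of water, and at 2% for 5 days in cycle 3. Tumors were taken on day 110.

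Cytokines of the IL-6 family signal through receptor complexes that contain gp130. IL-6 and IL-11 bind their own receptor chains before they engage gp130, whereas oncostatin M (OSM) and leukemia inhibitory factor (LIF) pair gp130 with OSMR or LIFR. The complexes activate JAK kinases, which phosphorylate STAT3, and STAT3 induces *Socs3*, whose product binds gp130 and JAK and ends the signal. In the inflamed colon, the axis is known for its part in epithelial regeneration and in the growth of colitis-associated tumors.

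MicroRNA-34a (miR-34a), the product of the floxed gene, recognizes mRNAs by its seed, bases 2 to 8. Its mature sequence is shown because it is the molecule that the 2 genotypes were designed to differ in, with the seed in capitals. It lies on the plus strand at chr4:150068473-150068494 (GRCm38.p6, RefSeq).

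mmu-miR-34a-5p: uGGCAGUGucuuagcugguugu

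The DNA letters complementary to the seed are CACTGCC. In the mouse GENCODE vM21 annotation (GRCm38), 3157 of 21010 protein-coding genes, 15.0%, had these letters in an annotated 3′ untranslated region (3′ UTR), read on the strand of the transcript. Among the members, 4 of 10 had them. These were *Il6ra* with 4 matches in 7102 bases, *Lifr* with 1 match in 6320 bases, *Il6st* with 1 match in 5641 bases and *Socs3* with 1 match in 1474 bases. *Il6*, *Il11*, *Osm*, *Lif*, *Osmr* and *Stat3* had no match in 3′ UTRs of 1017 to 3701 bases, beside a median of 960 bases over all genes. The sites of *Lifr*, *Il6st* and *Socs3* and 1 of the 4 *Il6ra* sites are printed below on the transcript's strand, with the 7 matching letters in capitals. They are shown since these 4 mRNAs are the members with such a match. Shorter matches and matches outside annotated 3′ UTRs were not searched. A match is a description of letters and not a measured target site.

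*Il6ra*, 3′ UTR, chr3:89865409-89865437, minus strand: tgggtggcaccCACTGCCcttcacttgga
*Lifr*, 3′ UTR, chr15:7193612-7193640, plus strand: aagcagaccacCACTGCCatgcccttaat
*Il6st*, 3′ UTR, chr13:112504659-112504687, plus strand: cagaatgtttgCACTGCCgaaaacaaagt
*Socs3*, 3′ UTR, chr11:117967028-117967056, minus strand: ataaccactccCACTGCCcaacctaggtg

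The letters of a STAT dimer motif, TTCNNNGAA, were searched in RefSeq promoter windows (GRCm38.p6) that run from 250 bases before to 50 bases after each gene start. The motif is its own reverse complement, so both strands were covered. It occurred in 2726 of 32851 windows, 8.3%, and in 2582 of 27025 genes with a window, 9.55%. Of the 9 members with a window, *Socs3* alone held it, starting 154 bases before the gene start. The stretch around it is printed with the motif in capitals because *Socs3* is the member that STAT3 itself is known to induce. This match, too, is a description of letters and not a measured binding site.

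*Socs3* promoter, chr11:117969502-117969530, minus strand: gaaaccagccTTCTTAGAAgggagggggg

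The library labelled *Mir34a* F/F held 20312 cells with 147109016 unique molecular identifiers (UMIs, one for each counted mRNA molecule), and the library labelled *Mir34a* ΔMye held 18571 cells with 193133086 UMIs. Median UMIs per cell were 4787 and 7716, and the ratio of the medians between the libraries ran from 1.11 in endothelial cells to 5.69 in B cells. In each library the markers of each deposited cell type were highest in that type, and 96 barcode sequences occurred in both libraries. The primary transcript of *Mir34a* (row mir34apri) was counted at 0.0567 (0.0477–0.0668) per 10000 UMIs in macrophages and neutrophils labelled *Mir34a* F/F and at 0.111 (0.101–0.121) in the same types labelled *Mir34a* ΔMye, which goes against a lower level in the knockout. Whether the counted 3′ tags lie in the deleted stretch is not given in the sources used here, so they check nothing, and the libraries are called by their labels, F/F and ΔMye. Levels below are UMIs of a gene per 10000 UMIs summed over all cells of a type in a library, followed by exact 95% Poisson intervals. Ratios are log2 of the level in the library labelled ΔMye over that in the library labelled F/F, with exact 95% intervals. A single library stands for each genotype, so genotypes cannot be tested against each other. The intervals cover counting error only, not the spread between mice. Where 2 values are given without names, the library labelled F/F comes first. Levels are compared within a gene.

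*Il6* mRNA, which encodes the founding cytokine of the family, was highest in the cells annotated as basophils in both libraries and next highest in mast cells. In basophils its level was 30.3 (27.9–32.8) in the library labelled F/F, from 591 UMIs in 48 cells, and 16.9 (15.8–18.2) in the library labelled ΔMye, from 762 UMIs in 40 cells. Mast cells had levels of 2.7 (2.53–2.89) and 2.95 (2.84–3.07). Both steps in the order, basophils above mast cells and mast cells above the next type, exceeded counting error in each library. Below them the order differed between the libraries. Macrophages (0.507), endothelial cells (0.443) and fibroblasts (0.359) followed in the library labelled F/F and were not told apart from their neighbours. In the library labelled ΔMye, endothelial cells (1.11) were above fibroblasts (0.485), which were not told apart from macrophages (0.426). Dendritic cells had 0.171 and 0.163. T cells served as the reference, a type not known as a main source of *Il6*, and had 0.0529 and 0.0684. Neutrophils, B cells and epithelial cells lay between 0.0299 and 0.0761, near that reference. Erythroid cells had 2 UMIs in one library and 0 UMIs in the other, where 3 UMIs would be a level of 0.221.

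**Figure D1:**
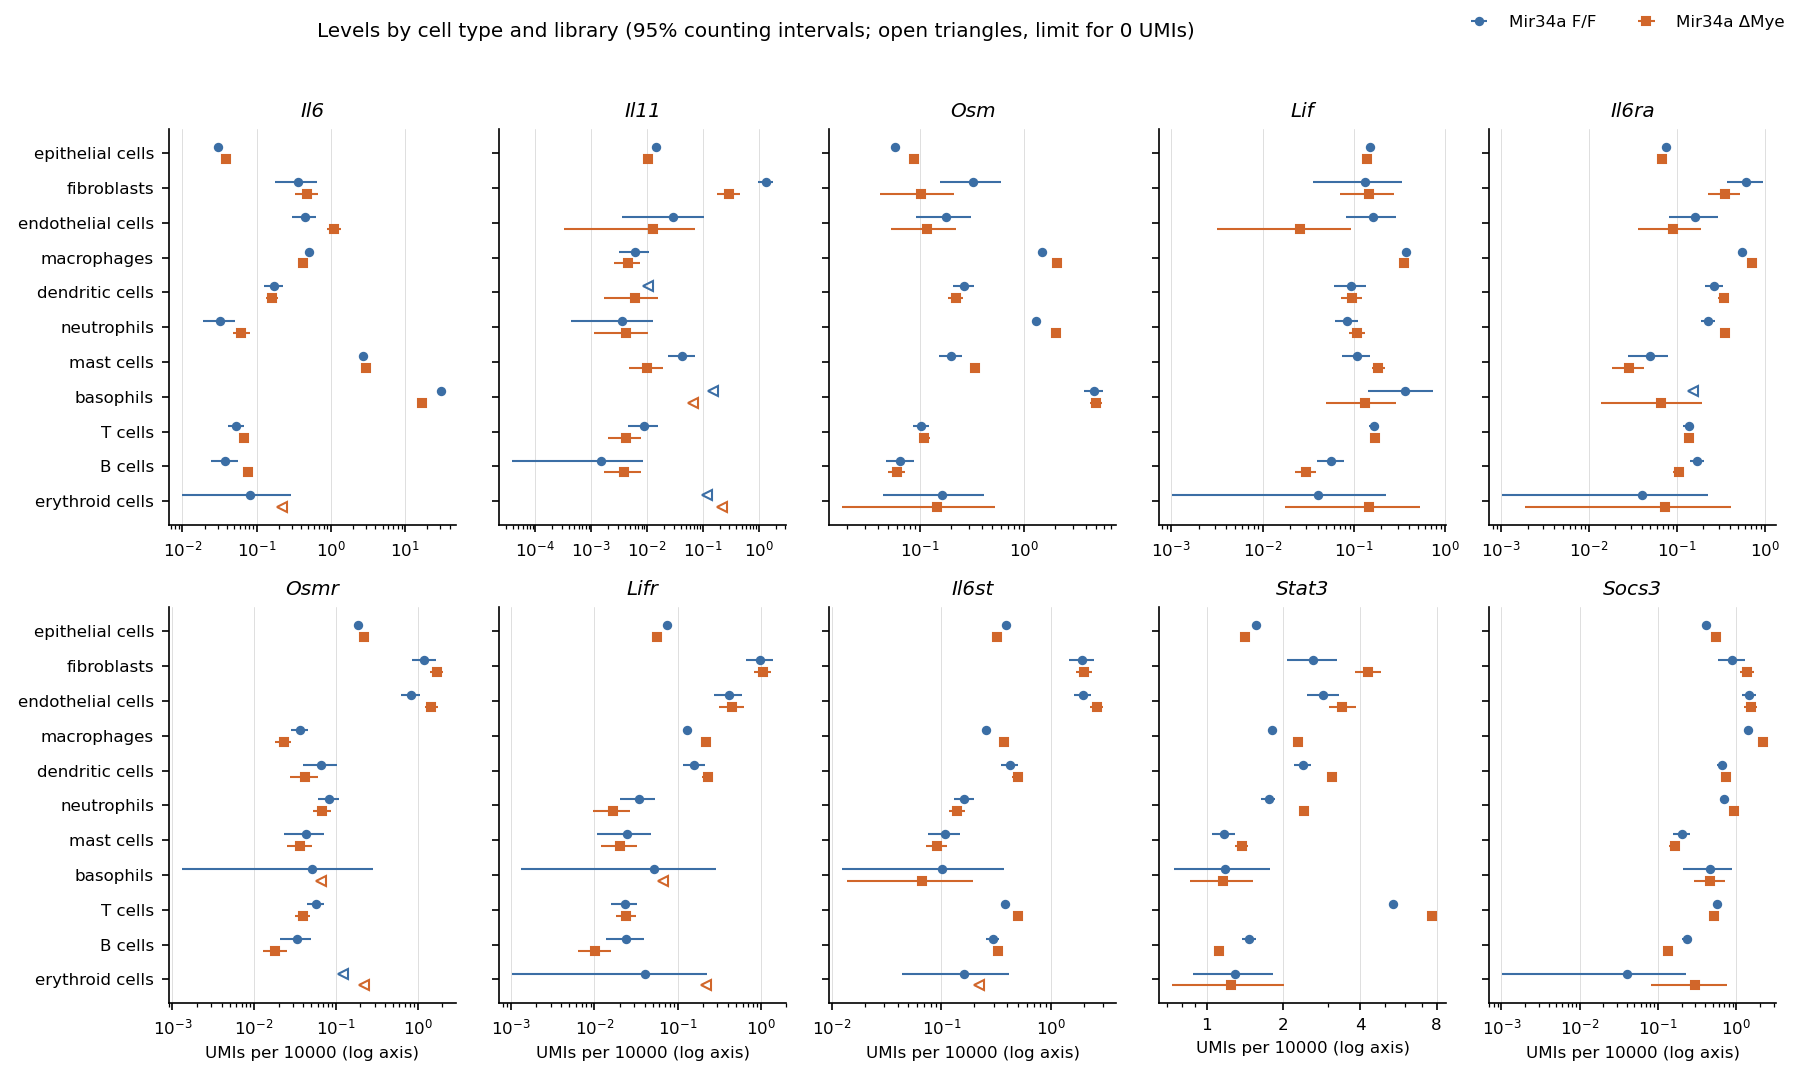
Level of each of the 10 members (UMIs per 10000 UMIs, log axis) in the 11 cell types of the library labelled F/F and the library labelled ΔMye. Points are levels over all cells of a type, bars are exact 95% Poisson intervals, and open triangles mark types with 0 UMIs at the level that 3 UMIs would give. *Il6* and *Osm* were highest in basophils, *Il11* in fibroblasts and *Stat3* in T cells in both libraries.

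Basophils were 0.236% and 0.215% of the cells but carried 20% (18.6–21.5) and 13.3% (12.5–14.3) of all *Il6* UMIs (exact binomial intervals). Mast cells carried 29.9% and 45.4%, macrophages 33.5% and 24.8%, and epithelial cells, the most numerous type, 9.57% and 5.94%. With each cell given the same weight, the epithelial shares were 8.16% and 13.4%, the opposite direction. At least 1 *Il6* UMI was found in 75.0% and 67.5% of basophils, in 31.7% and 50.8% of mast cells and in 13.7% and 12.6% of macrophages, against 2.07% and 4.23% of T cells. These shares depend on depth, and the median UMIs per cell were 3673 and 9302.5 in basophils, 2951.5 and 8456 in mast cells, 7251.5 and 11227 in macrophages and 3548 and 8043 in T cells. With every cell thinned to 1000 UMIs and shallower cells left out, the shares were 68.8% and 42.5% in basophils, 15.6% and 17.4% in mast cells and 4.42% and 2.66% in macrophages.

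The *Il6* level of basophils was lower in the library labelled ΔMye, at a ratio of -0.84 (-0.99 to -0.68), and the makeup of the annotated cells moved with it. In 14 of 48 and 19 of 40 cells annotated as basophils, neutrophil or mast cell markers made up at least 1% of the UMIs. *Mcpt8*, a protease gene that defines mouse basophils, had 0 UMIs in those 14 cells and was found in 1 of those 19. *Il6* in them was at 2.07 and 1.08. In the other 34 and 21 cells, *Il6* was at 46.9 (43.2–50.9) and 42.4 (39.4–45.6), a ratio of -0.15 (-0.30 to 0.01), and was found in 32 of 34 and 19 of 21 cells. The median cell among them held 14 and 22 *Il6* UMIs, and the highest held 51 and 110. The interval of the ratio included 0 in the cells under 1%, and did not over all annotated basophils. *Mcpt8* was at 27.0 and 24.8 in the cells under 1%. The split was made after the data were seen.

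**Figure D2:**
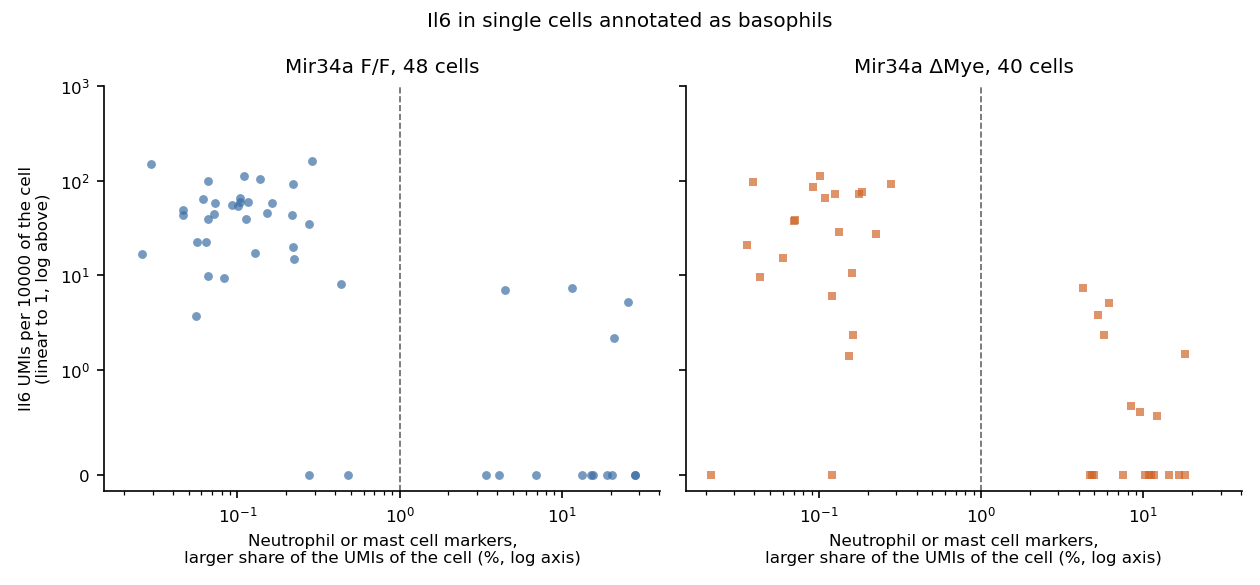
*Il6* UMIs per 10000 in each of the 48 and 40 cells annotated as basophils (one point per cell) on an axis that is linear to 1 and logarithmic above, against the larger of the shares of its UMIs in neutrophil and in mast cell markers (percent, log axis, dashed line at 1%). The cells with high *Il6* lie at a low marker share, and the 14 and 19 cells at or above 1% hold *Il6* in 4 and 8 cells, at lower levels.

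Mast cells gave a log2 ratio for *Il6* of 0.13 (0.02 to 0.24). It was 0.60 (0.30 to 0.89) in mast cells under 5000 UMIs, -0.53 (-0.74 to -0.31) from 5000 to under 10000 and 0.21 from 10000 to under 20000, so its direction differed with depth. In macrophages it was -0.25 (-0.37 to -0.13), from 987 UMIs in 302 of 2208 cells and 1414 UMIs in 327 of 2601 cells, and 42 and 27 cells held 50% of those UMIs. The direction in macrophages was not the same at every depth. Among cells of 500 to under 5000 UMIs, 5000 to under 10000, 10000 to under 20000 and 20000 or more, the log2 ratios were -2.14, -0.30, 0.83 and 1.31. By macrophage class, *Il6* was at 0.96 and 1.36 in cells with an *Arg1* UMI, at 0.805 and 0.564 in cells with a *Ly6c2* UMI (a monocyte gene) and at 0.081 and 0.212 in cells with an *Mrc1* UMI. Endothelial cells had 30 and 86 *Il6* UMIs and a log2 ratio of 1.33 (0.72 to 1.98). There, 4 and 3 cells held 50% of the UMIs, the ratio after thinning was -0.26, and neutrophil markers in endothelial cells were at 5.25 and 74.9. Their part in the ratio was not tested.

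*Osm*, the gene of the cytokine oncostatin M, was highest in basophils and next highest in macrophages and neutrophils. Its level in basophils was 4.76 (3.85–5.84) and 4.98 (4.35–5.68), in macrophages 1.5 (1.44–1.55) and 2.08 (2.04–2.13), and in neutrophils 1.32 (1.23–1.42) and 2.06 (1.97–2.15). Macrophages and neutrophils were told apart in the library labelled F/F and not in the library labelled ΔMye. All other types were at or below 0.341, and epithelial cells, the reference for *Osm*, had 0.0576 and 0.0872. Macrophages carried most *Osm* UMIs, 62.8% (61.4–64.2) in the library labelled F/F and 64.4% in the other, and neutrophils carried 15.9% and 18.4%. *Osm* was found in 47.9% and 52.0% of macrophages and in 35.0% and 56.5% of neutrophils, against 4.18% and 7.05% of epithelial cells. The median UMIs were 4107 and 7330 in neutrophils and 5315.5 and 6623 in epithelial cells. After thinning, the shares were 13.5% and 15.0% in macrophages and 12.3% and 17.3% in neutrophils.

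In neutrophils the *Osm* ratio was 0.64 (0.52 to 0.76), and it was 0.11, 0.88 and 1.13 across the 3 depth classes that could be compared. Epithelial cells, the reference, had an *Osm* ratio of similar size, 0.60 (0.44 to 0.76), at levels under 0.1. By depth class the epithelial ratio was 0.86, 0.73, 0.58 and 0.48, so a higher *Osm* level was not particular to the types highest in it. The summed neutrophil markers moved with the library, at 1560 and 1110 over all neutrophils and at 1690 and 518 in those under 5000 UMIs, and their part in the neutrophil ratios of this and the other members was not tested. In macrophages the *Osm* ratio was 0.48 (0.42 to 0.54) over summed UMIs, but the direction differed with depth. The level in macrophages of under 5000 UMIs was 1.98 and 0.823, a ratio of -1.27, and in the deeper classes the ratios were 0.15, 1.32 and 1.48. With each cell given the same weight, the ratio was 0.07. The cells of a depth class were not alike in the libraries: in the shallowest class, the summed macrophage markers were at 15.8 and 31.0 and *Ly6c2* at 1.4 and 0.175, and in the deepest class *Mrc1* was at 1.21 and 4.77. Their part in the result was not tested. Cells with a *Ly6c2* UMI had the highest *Osm* levels among the macrophage classes, 3.83 and 5.26, and those with an *Arg1* UMI had 1.44 and 2.8. In mast cells *Osm* was at 0.2 and 0.341, a ratio of 0.77 (0.38 to 1.18), with -0.42 (-1.69 to 0.70), 0.43 (-0.34 to 1.26) and 1.39 by depth class. Among basophils under 1% neutrophil and mast markers, *Osm* was at 6.93 (5.53–8.56) and 9.86 (8.43–11.5), a ratio of 0.51 (0.12 to 0.90), whereas over all annotated basophils the intervals of the levels overlapped.

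**Figure D3:**
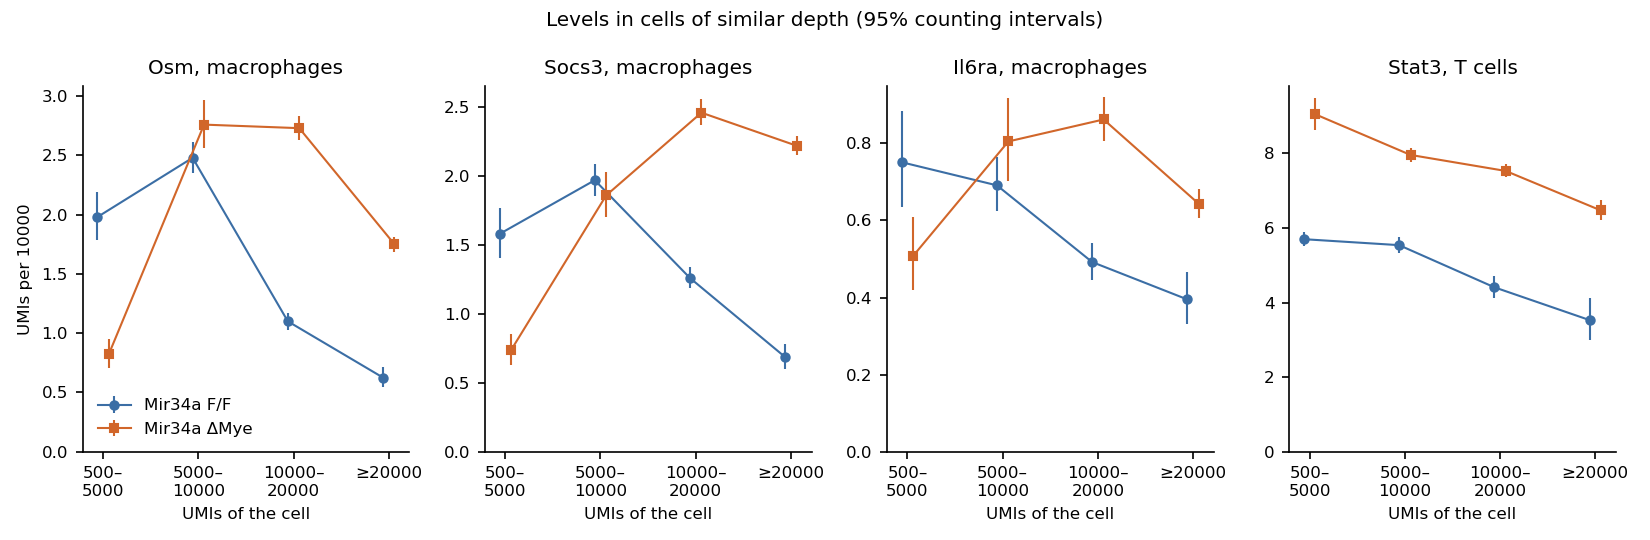
Levels (UMIs per 10000) of *Osm*, *Socs3* and *Il6ra* in macrophages and of *Stat3* in T cells, by UMIs per cell, for the libraries labelled F/F and ΔMye. Bars are exact 95% Poisson intervals. For *Osm* in macrophages F/F was higher under 5000 UMIs and ΔMye from 5000 UMIs, by little up to 10000, whereas *Stat3* in T cells was higher in ΔMye in all 4 depth classes.

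*Il11*, whose product acts on stromal and epithelial cells, was counted in few cells. Its level in fibroblasts was 1.34 (0.961–1.82), from 41 UMIs in 11 of 57 cells, and 0.294 (0.18–0.454), from 20 UMIs in 8 of 60 cells. The log2 ratio was -2.19 (-3.04 to -1.38), but 2 cells held 50% of the UMIs in each library, and without the highest cell of each the levels were 0.983 and 0.194. Every other type with a UMI was at or below 0.043. Epithelial cells, at 0.0148 and 0.0104, nevertheless held most *Il11* UMIs by number, 140 of 224 and 92 of 163. They were 57.2% and 53.1% of the cells and held 94415818 of 147109016 and 88662011 of 193133086 UMIs of all genes.

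*Lif* was at low levels in most types. Macrophages had 0.369 and 0.349, a ratio of -0.08 (-0.21 to 0.06) over summed UMIs, T cells 0.166 and 0.171, and epithelial cells 0.149 and 0.139. The macrophage ratio was -0.50 with each cell given the same weight and -1.66, 0.04, 1.68 and 1.25 by depth class, so its direction differed with depth. In the library labelled F/F, neighbours in the order could not be told apart at any step. The neighbour of macrophages there was basophils, with 7 UMIs. The macrophage interval (0.342–0.397) lay above those of T cells (0.145–0.19) and epithelial cells (0.142–0.157). Macrophages stood above the next type in the library labelled ΔMye. Epithelial cells carried 56.0% and 38.4% of all *Lif* UMIs, and 48.9% and 43.2% with each cell given the same weight. They were 57.2% and 53.1% of the cells. *Lif* was found in 16.5% and 15.5% of macrophages, against 3.92% and 4.64% of B cells, the reference, whose median UMIs were 3664 and 20852. Cells with an *Arg1* UMI had 0.481 and 0.95 and those with an *Mrc1* UMI 0.152 and 0.105. In mast cells *Lif* was at 0.107 and 0.185, a ratio of 0.79 (0.25 to 1.36) from 35 and 163 UMIs.

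*Il6ra*, the IL-6 binding chain, was at 0.557 and 0.718 in macrophages, 0.226 and 0.353 in neutrophils, 0.267 and 0.341 in dendritic cells, 0.137 and 0.138 in T cells and 0.171 and 0.105 in B cells. Fibroblasts, with 19 and 24 UMIs, had 0.62 and 0.353, which were not told apart from macrophages in F/F or from neutrophils in ΔMye. Epithelial cells, the reference, had 0.0762 and 0.0673. Basophils, the cells highest in *Il6*, had 0 *Il6ra* UMIs in the library labelled F/F, where 3 UMIs would be a level of 0.154, and 3 UMIs in the other library, all outside the cells under 1% neutrophil and mast markers.

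The *Il6ra* ratio in macrophages was 0.36 (0.26 to 0.47), but 0.08 with each cell given the same weight and -0.16 after thinning, and by depth class it was -0.56, 0.22, 0.81 and 0.70. A UMI of *Il6ra* was found in 33.1% and 45.3% of macrophages and in 6.16% and 5.59% after thinning. In neutrophils the ratio was 0.65 (0.35 to 0.96), with 0.27, 1.20 and 1.05 by depth class. In B cells it was -0.70 (-1.03 to -0.36), and the kinds of B cell moved with it. After thinning, *Jchain*, an antibody chain gene of plasma cells, was found in 385 of 931 and 707 of 922 B cells. *Il6ra* was at 0.119 and 0.0891 in those cells and at 0.293 and 0.262 in the 103 and 86 B cells with a UMI of *Ms4a1* (CD20). The part of this makeup in the B cell ratios was not tested.

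*Osmr* and *Lifr*, the chains for OSM and LIF, and *Il6st* (gp130) were highest in stromal cells. *Osmr* was at 1.21 and 1.72 in fibroblasts, 0.827 and 1.48 in endothelial cells and 0.189 and 0.22 in epithelial cells. Fibroblasts and endothelial cells were not told apart in *Osmr* in either library. All other types had at most 0.0823, and macrophages, the main carriers of *Osm*, had 0.036 and 0.0229. Epithelial cells were told apart from both neighbours in this order in each library. *Lifr* was at 0.979 and 1.06 in fibroblasts and 0.414 and 0.454 in endothelial cells, each above the next type beyond counting error. Dendritic cells (0.158 and 0.228) and macrophages (0.13 and 0.219) came next, against 0.0231 and 0.0242 in T cells, the reference. The *Lifr* ratio in macrophages was 0.75 (0.54 to 0.96), with 0.37 when each cell had the same weight, 0.18 after thinning and -0.33, 0.54, 1.41 and 1.43 by depth class.

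*Il6st* had at least 1 UMI in every type of the library labelled F/F and in all but erythroid cells of the other. In F/F, basophils had 2 UMIs and erythroid cells 4. The 30 erythroid cells labelled ΔMye had 0 UMIs, where 3 UMIs would be a level of 0.221. Endothelial cells (1.95 and 2.61) and fibroblasts (1.93 and 2.0) stood above all other types, which had at most 0.503. T cells had 0.381 and 0.503, a log2 ratio of 0.40 (0.25 to 0.55), macrophages 0.257 and 0.372, a ratio of 0.53 (0.38 to 0.68), and epithelial cells 0.389 and 0.319, a ratio of -0.28. The epithelial ratio was -0.05 when the median ratio of all genes in that type, -0.24, was subtracted. Its direction turned when cells with few mRNAs or many mitochondrial UMIs were left out. In macrophages the *Il6st* ratio was 0.05 after thinning.

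*Stat3*, the transcription factor of the axis, was highest in T cells in both libraries, at 5.38 (5.26–5.51) and 7.66 (7.55–7.77), from 7216 UMIs in 3088 cells and 18365 UMIs in 2649 cells. The next types were endothelial cells (2.87 and 3.41) and fibroblasts (2.61 and 4.31), and the step from T cells exceeded counting error in each library. Mast cells (1.17 and 1.37), basophils (1.18 and 1.16) and B cells (1.46 and 1.12) were among the lowest. The log2 ratio in T cells was 0.51 (0.47 to 0.55), and it was positive in each depth class, at 0.67, 0.52, 0.77 and 0.87. The deepest class had 20 and 141 cells. Cells of a depth class were not alike in the libraries: under 5000 UMIs, the summed T cell markers were at 15.7 and 6.08 and the median mitochondrial share at 1.91% and 5.88%. Their part in the ratio was not tested. After thinning, *Stat3* was found in 36.9% (35.2–38.7) and 44.7% (42.8–46.6) of T cells.

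The higher *Stat3* level was seen in each T cell class. Cells with a UMI of *Foxp3*, the regulatory T cell factor, had 5.79 and 8.83, those with *Cd8a* had 6.12 and 8.54, those with *Cd4* had 4.49 and 6.52, and those with *Trdc*, a γδ T cell receptor gene, had the highest levels of the 4 classes, 9.87 and 13.0. These classes held 185 and 189, 57 and 35, 234 and 249, and 97 and 88 cells. Median depth moved with the library in T cells, at 3548 and 8043 UMIs, and its part in the ratio was not tested. Within depth classes the ratio was at least as large as over all T cells. It was smaller with each cell given the same weight and after thinning.

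**Figure D4:**
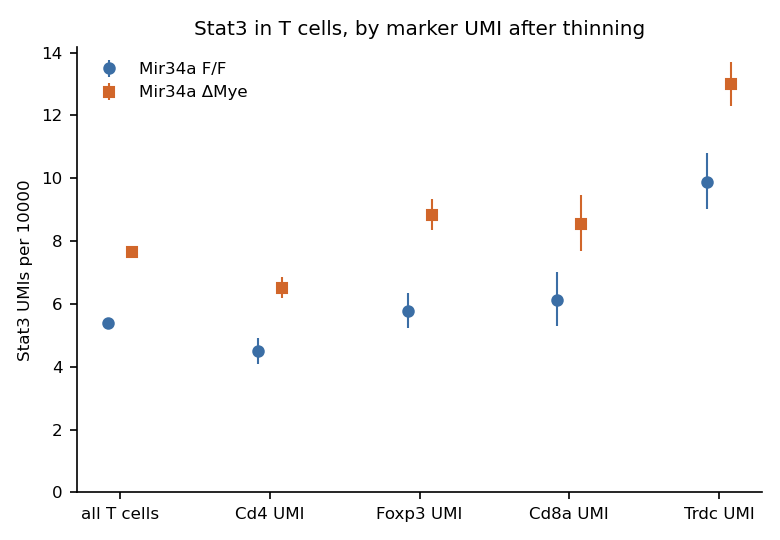
*Stat3* level (UMIs per 10000) in all T cells and in T cells with a UMI of *Cd4*, *Foxp3*, *Cd8a* or *Trdc* after thinning, for the libraries labelled F/F and ΔMye. Points are levels over the cells of a class and bars exact 95% Poisson intervals. ΔMye was higher in each class, with 13.0 against 9.87 in cells with a *Trdc* UMI.

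In other types the *Stat3* ratio was 0.72 (0.36 to 1.10) in fibroblasts (0.20 with each cell given the same weight), 0.47 (0.36 to 0.58) in neutrophils, 0.39 (0.27 to 0.52) in dendritic cells and 0.34 (0.28 to 0.40) in macrophages. Annotated fibroblasts had neutrophil markers at 39.1 and 2.9 and fibroblast markers at 84.9 and 167. Their part in the fibroblast ratios of this and the other members was not tested. The macrophage ratio was 0.06 with each cell given the same weight and -0.49, 0.35, 0.53 and 0.73 by depth class. In B cells it was -0.39, while cells with *Ms4a1* had 2.99 and 3.38 and cells with *Jchain* 0.823 and 0.839. In epithelial cells it was -0.14, from 1.56 and 1.42, and this direction turned when cells with many mitochondrial UMIs were left out or the median ratio of all genes was subtracted.

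*Socs3*, the feedback inhibitor, was highest in endothelial cells and macrophages, which were not told apart in the library labelled F/F (1.46 and 1.39). In the library labelled ΔMye, macrophages (2.16) stood above endothelial cells (1.52). Fibroblasts had 0.881 and 1.38, neutrophils 0.698 and 0.938, T cells 0.572 and 0.518, and mast cells 0.2 and 0.163. The T cells, highest in *Stat3*, were thus below macrophages in *Socs3* in both libraries. In macrophages the *Socs3* ratio was 0.63 (0.57 to 0.70), but 0.18 with each cell given the same weight and 0.11 after thinning. By depth class the macrophage levels were 1.58 and 0.736, 1.97 and 1.86, 1.26 and 2.46, and 0.686 and 2.22, so the library labelled F/F was higher under 5000 UMIs, not told apart in the next class and lower in the deeper ones. In each of the 3 macrophage classes *Socs3* was higher in the library labelled ΔMye, at 1.56 and 2.43 with *Mrc1*, 1.18 and 2.05 with *Arg1*, and 2.0 and 2.83 with *Ly6c2*. The classes were not matched in depth: cells with *Mrc1* had medians of 9229 and 18059 UMIs. The part of depth in these values was not tested.

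Epithelial cells had *Socs3* at 0.411 (0.399–0.425) and 0.544 (0.529–0.559), a ratio of 0.40 (0.34 to 0.46), with -0.55, 0.26, 0.72 and 0.90 by depth class. The median mitochondrial share of epithelial cells was 11.2% and 18.3%, and macrophage markers in them were at 1.02 and 1.47. Their part in the ratio was not tested. Cells with a UMI of *Krt20*, a gene of mature colon epithelium, had 0.608 and 0.716, and cells with *Lgr5*, a stem cell gene, had 0.268 and 0.473. In B cells the *Socs3* ratio was -0.81 (-1.10 to -0.52), beside levels of 0.293 and 0.275 in cells with *Ms4a1* and 0.162 and 0.115 in cells with *Jchain*.

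**Figure D5:**
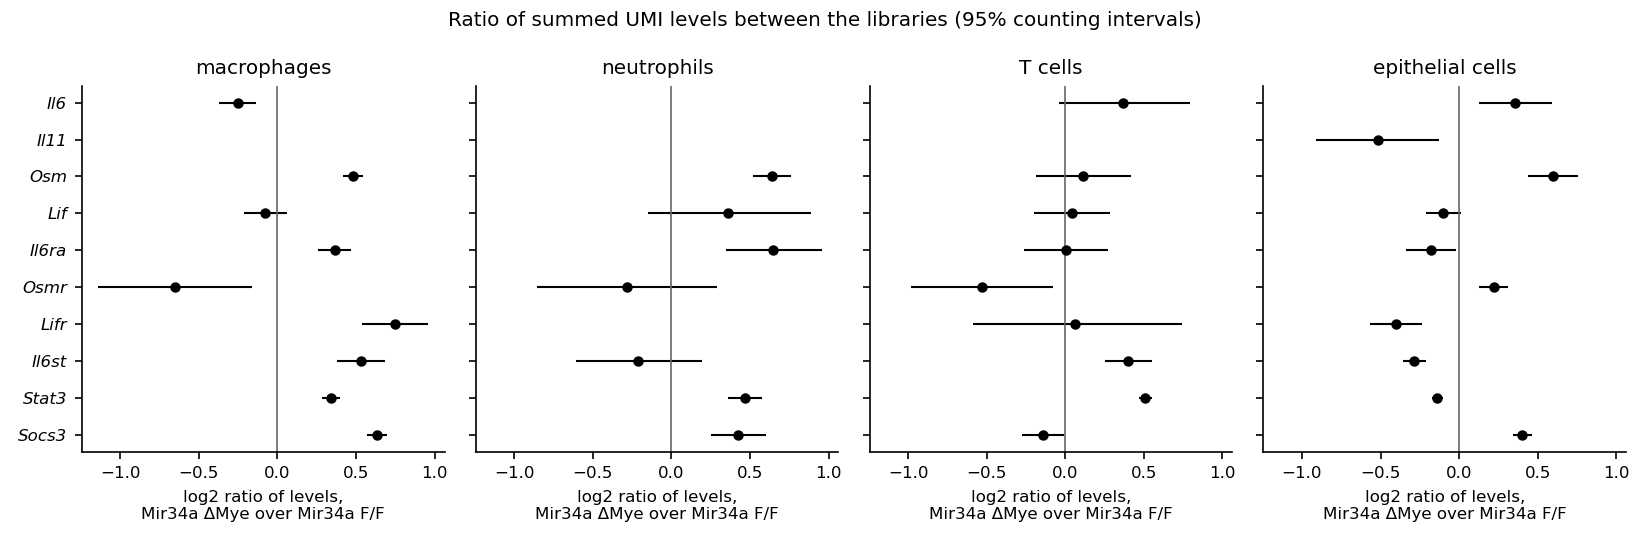
Log2 ratio of the level labelled ΔMye over that labelled F/F for the members in macrophages, neutrophils, T cells and epithelial cells, where each library had enough UMIs for a ratio. Points are ratios over summed UMIs, bars exact 95% intervals, and the line at 0 marks equal levels. *Stat3* in T cells lies at 0.51 and *Socs3* in macrophages at 0.63.

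Among the 7 types with at least 300 cells per library, members of at least 0.1 UMIs per 10000 in either library were counted where the level differed by 1.5-fold or more. In macrophages 2 of 8 members, *Lifr* and *Socs3*, were past that fold, both higher in the library labelled ΔMye, beside 10.4% of all genes past it in either direction. Neither of these 2 was past the fold with each cell given the same weight or after thinning. In neutrophils 2 of 6, *Osm* and *Il6ra*, were higher, beside 23.7%, and in mast cells 2 of 6, *Osm* and *Lif*, were higher, beside 15.3%. With each cell given the same weight, *Il6ra* in neutrophils was at 0.267 and 0.382, under that fold. *Osm* in neutrophils was then at 1.44 and 2.15, close to the fold, and it was under the fold after thinning. In B cells 2 of 4, *Il6ra* and *Socs3*, were lower, beside 28.9%. No member was past the fold in the 7 of dendritic cells, the 5 of epithelial cells or the 6 of T cells, beside 13.1%, 15.6% and 11% of all genes. The median ratio of the members was 0.42 in macrophages, 0.45 in neutrophils, 0.18 in mast cells, 0.08 in T cells, 0.25 in dendritic cells, -0.10 in epithelial cells and -0.54 in B cells. The median over all genes was -0.21 in neutrophils, -0.24 in epithelial cells and -0.33 in B cells, and within 0.1 of 0 in the other 4 types. Relative to that median, the 2 B cell members were no longer past the fold, and more members were past it on the higher side elsewhere: 4 in neutrophils (*Stat3* and *Socs3* in addition), 3 in macrophages (*Il6st* in addition) and 1 in epithelial cells (*Socs3*). On that scale the shares of all genes that were higher past the fold were 12.3%, 5.53% and 3.46%, against 6.0%, 4.2% and 1.18% before.

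A list of 47 further genes of the axis covered other ligands and receptors, JAK and STAT genes, inhibitors and known STAT3 target genes. Like the members, the list was chosen with earlier results of these data known, so its counts are descriptions. In neutrophils, 10 of the 35 measured members of the list were higher in the library labelled ΔMye and 3 were lower, beside 6.0% of all genes higher and 17.7% lower past the fold. The higher ones included the kinase genes *Jak1* (1.64 and 2.52) and *Jak2* (2.69 and 4.83), *Adam17* (0.6 and 0.943), whose product sheds the IL-6 receptor, and *Pim1* (8.15 and 12.5), a STAT target kinase. The lower ones were *Reg3b*, *Reg3g* and *Myc*. All 3 were on the STAT3 target list, of which 4 genes, *Pim1*, *Saa3*, *Batf* and *Il10*, were higher. Neutrophil markers were at 1560 and 1110 in these cells, and their part in the list's counts was not tested. The median ratio of the list there was 0.29, and relative to the median of all genes 16 were higher and 1 was lower, beside 12.3% and 6.54% of all genes on that scale. In macrophages, 3 of 39 were higher and 4 lower, beside 4.2% and 6.16% of all genes, with a median of 0.12, and relative to all genes 5 were higher and 4 lower, beside 5.53% and 4.6%. *Il10*, an anti-inflammatory cytokine gene that signals through STAT3, was at 0.384 and 0.813, *Socs1*, a further inhibitor, at 0.094 and 0.142, and *Saa3*, an acute phase gene, at 1.86 and 0.728. *Socs1* reached the minimum level of 0.1 only in the library labelled ΔMye, so it could be counted only as higher.

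In epithelial cells, 1 of 32 listed genes was higher and 4 were lower, beside 1.18% and 14.4% of all genes, with a median of -0.17, against 2 higher and 1 lower relative to all genes, beside 3.46% and 4.43%. The higher one was *Il31ra*, which encodes the partner of OSMR in the IL-31 receptor, at 0.566 and 1.87, a ratio of 1.73. *Il31ra* was also higher past the fold in dendritic cells, at a ratio of 0.73, and in neutrophils, at 0.92. Relative to all genes it was past the fold in macrophages too. The lower ones in epithelial cells were *Fos* (9.15 and 5.98), *Reg3g* (0.818 and 0.489), a gene for an antimicrobial lectin, *Ccnd1* (1.31 and 0.871), which encodes cyclin D1, and *Timp1* (0.108 and 0.0376). In T cells, *Il27* (0.103 and 0.0542) and *Fos* (5.6 and 3.65) were the 2 lower ones of 38, beside 8.88% of all genes lower past the fold. *Il27* here and *Timp1* in epithelial cells reached the minimum level of 0.1 only in the library labelled F/F, so they could be counted only as lower. In B cells, 12 of 32 were lower and none higher past the fold. All 12 were on the STAT3 target list and included *Myc*, *Junb* and *Bcl3*, and 25.8% of all genes in B cells were lower past the fold. Relative to the median of all B cell genes, 2 listed genes were higher and 3 lower, beside 9.5% and 10.8%. Dendritic cells had 2 higher and 2 lower of 34, beside 5.47% and 7.6% of all genes. In mast cells 2 of 33, *Reg3b* and *Reg3g*, were lower, beside 11.6% of all genes. Relative to all genes, 2 were higher and 2 lower in mast cells, beside 5.32% and 8.97%. *Reg3b* and *Reg3g* were also among the lower genes of neutrophils and B cells. Epithelial markers were at 18.4 and 9.45 in mast cells, 28.4 and 15.5 in neutrophils and 14.1 and 5.82 in B cells. Their part in these values was not tested.

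The genes whose levels followed each member most closely over the 22 groups of cell type and library were named by the Pearson correlation of log2(level + 0.05) among 6864 genes. The points share 2 libraries and differ in depth, so these values are descriptions. For *Il6* they were Gm47599 (0.892), *Mcpt8* (0.872) and *Gata2* (0.87), a transcription factor of basophils and mast cells, but Spearman's rho over the same groups was only 0.635, 0.317 and 0.511. For *Osm* they were led by *Nlrp3* (0.955), an inflammasome gene of myeloid cells, and *Cyp4f18* (0.948), with rho of 0.915 and 0.863. For *Il6ra* they included *Nrg1* (0.836, rho 0.735). The closest genes by Pearson were *Pi15* (0.979, rho 0.61) for *Il11*, *Hmcn1* (0.977, rho 0.86) for *Osmr*, *Cyb5r3* (0.94, rho 0.887) for *Lifr*, *Tasor* (0.908, rho 0.857) for *Il6st*, *Atp2b4* (0.873, rho 0.778) for *Stat3* and *Rnf13* (0.924, rho 0.895) for *Socs3*. *Lif* had the weakest closest match, *Cln8* (0.75, rho 0.549).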

How the data were processed

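Single cells of CACs were sequenced with the 10x 3′ v3.1 chemistry and CellPlex labels, 30000 cells loaded per genotype. Per the study's methods, reads were aligned with Cell Ranger 7.2.0 to mm10, doublets were removed with Scrublet, and cells with over 200 expressed mRNAs and under 25% mitochondrial RNA were kept. In the deposited table, however, only 9286 of 11614 and 6040 of 9865 epithelial cells pass that filter, and all deposited cells were used. The authors deposited natural log values, ln(1 + UMIs per 10000), made with LogNormalize of Seurat. Whole UMIs were recovered from these values for every cell, with a largest deviation from a whole number of 1.5e-10, and summed per deposited cell type and library. A cell held 501 to 84477 UMIs, and 3261 genes had none. No columns of other samples were present (0).

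Samples were grouped by genotype label, 1 library each, so ratios carry exact Poisson and binomial intervals (95%) and no p-value. The functions were tested on simulated data. Named genes are all 10 members, the listed genes past 1.5-fold and the genes most alike. Some genes that this rule names are not reported here. Members and lists were chosen with earlier results of these data known. Types with under 300 cells per library had no counts of genes past the fold. Classes of cells were set by a UMI of the named gene after thinning to 1000 UMIs. Alternatives were the mean over cells, thinned cells, stricter filters (at least 500 mRNAs and under 10% mitochondrial RNA; the stated filter), totals without immunoglobulin and mitochondrial genes, subtraction of the median ratio or of the reference type, no shared barcodes, depth classes, a 2-fold limit and a minimum level of 0.5. Python 3.11.15, numpy 2.4.6, scipy 1.17.1, pandas 2.3.3 and matplotlib 3.10.9 were used.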

Additional observations from a re-analysis of the deposited data

Results flagged for a closer look

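For 3 members with at least 20 UMIs in each library and a level of at least 0.1 in either library in both types, the level labelled ΔMye differed from that labelled F/F by more than 1.5-fold, in opposite directions in 2 cell types, with intervals that exclude 0 for each. *Il6* had a log2 ratio of 1.33 in endothelial cells and -0.84 in basophils, against -0.26 after thinning in the former and -0.15 (-0.30 to 0.01) among basophils under 1% neutrophil and mast markers. *Il6ra* had 0.65 in neutrophils and -0.70 in B cells. *Socs3* had 0.65 in fibroblasts, from 27 and 94 UMIs, and -0.81 in B cells, against 0.38 and -0.52 as means over cells. In the annotated fibroblasts, neutrophil markers were at 39.1 and 2.9 and fibroblast markers at 84.9 and 167. Their part in the fibroblast ratio was not tested. Relative to the median of all B cell genes, the B cell values were -0.37 for *Il6ra* and -0.49 for *Socs3*. With a single library for each genotype, the difference between the types was not tested in any of them. The endothelial *Il6* value rests on 4 and 3 cells that hold 50% of the UMIs.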

How the results depend on the processing

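No paired analysis was possible because each genotype had 1 library. Of 57 ratios of members, 34 moved by less than their counting error when each cell had the same weight, 20 moved further and 3 turned; after thinning these numbers were 25, 26 and 5, and 1 had no value. The stricter filter gave 53, 2 and 2, the stated filter 55, 1 and 1, totals without immunoglobulin and mitochondrial genes 50, 6 and 1, and subtraction of the median 43, 13 and 1. Leaving out cells with shared barcodes moved none of the 57. Subtraction of the ratio of the reference type, where a member had one, left 22 ratios within their counting error and moved 7 further. For *Il6* in basophils (-0.84), the ratio was -0.66 as a mean over cells, -0.43 thinned, -0.67 with at least 500 mRNAs and under 10% mitochondrial RNA, -0.63 after subtraction of the median ratio and -0.15 in cells under 1% neutrophil and mast markers, a split chosen after seeing the data. As a mean over cells, thinned, and from the shallowest to the deepest depth class (classes chosen after seeing the data), *Osm* in macrophages gave 0.07, 0.13, -1.27, 0.15, 1.32 and 1.48, *Il6ra* in macrophages 0.08, -0.16, -0.56, 0.22, 0.81 and 0.70, and *Socs3* in macrophages 0.18, 0.11, -1.10, -0.08, 0.96 and 1.69. *Osm* in neutrophils gave 0.49 thinned, 0.85 after subtraction of the median and 0.11, 0.88 and 1.13 by depth class. *Stat3* in T cells gave 0.47 as a mean over cells, 0.45 thinned, 0.57 after subtraction of the median and 0.67, 0.77 and 0.87 in the depth classes that moved. Members and listed genes past the fold numbered 14 in B cells, 4 in dendritic cells, 5 in epithelial cells, 9 in macrophages, 4 in mast cells, 15 in neutrophils and 3 in T cells. With a 2-fold limit they numbered 3, 1, 2, 2, 1, 2 and 0. With a minimum level of 0.5 they numbered 3 in B cells, 1 in dendritic cells, 4 in macrophages, 0 in mast cells and 7 in neutrophils, where fewer genes reach the minimum, and after subtraction of the median 5 in B cells. The other counts stayed within 1.5 times.

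Outside the depth classes, and beside *Il6ra* in macrophages (above), ratios that turned were *Il6* in endothelial cells (-0.26 thinned), *Osmr* in endothelial cells (-0.04 as a mean over cells, -0.30 thinned) and epithelial cells (-0.14 and -0.19), *Il6st* in endothelial cells (-0.08 and -0.85) and epithelial cells (0.20 with the stricter filter), and *Stat3* in epithelial cells (0.10 stricter filter, 0.01 stated filter, 0.08 without immunoglobulin and mitochondrial genes, 0.10 after subtraction of the median). The cause was not tested. In 1 or more depth classes the sign differed for further members, among them *Il6*, *Lif*, *Lifr* and *Stat3* in macrophages, *Il6* and *Osm* in mast cells and *Socs3* in epithelial cells, with values in the results above, *Osmr* in epithelial cells (-1.06 in the shallowest class) and *Stat3* in epithelial cells (0.12 in the deepest). The cell type with the highest level changed in 7 of 20 pairs of gene and library after thinning. Depth limits the small types most: basophils, fibroblasts and endothelial cells gave under 100 UMIs for several members.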
